A study of Mus musculus with 12 samples.

Results

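The histone genes of the mouse array were examined here, that is, every annotated gene whose symbol starts with H1f, H2ac, H2bc, H2az, H2ax, H2aj, H3c, H3f, H4c or H4f (older Hist symbols were searched for as well). The rule found 66 genes among the 19031 genes of the annotated table, measured by 100 of its 45135 probes, and used symbols alone, not measured values. They comprised 54 replication-dependent genes, 7 replacement genes and 5 genes known mainly from germ cells (H1f6, H1f7, H1f8, H2ac1 and H2bc1). To be tested, a gene needed a probe that was detected on every replicate array of some culture. Of the 66 genes 52 met this, namely 46 replication-dependent and 6 replacement genes, out of 10112 genes tested in all. H2bc18 passed through the spheroid arrays alone, H4c2 through adherent mouse 1 alone and H4c4 through adherent mouse 2 alone.

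The cells were described in the labels as prostate stem cells of C57Bl/6 mice, from which total RNA was prepared. They were grown as an adherent layer from mouse 1, as an adherent layer from mouse 2, or as spheroids, which are floating balls of cells, from mouse 1. Each of these 3 cultures had 3 replicate arrays and 1 array of the pooled replicates, 12 arrays in all, and no genotype, treatment, age or time in culture was given for any of them. Spheroids were sampled from 1 mouse only, so culture form and the single spheroid culture cannot be told apart, and the labels do not say whether replicates were separate cultures, so the p-values speak of array-to-array spread, which may be technical. In the header 2 arrays of adherent mouse 2 carry the same name and are called a and b here.

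Between 43.1% and 49.2% of probes were detected per array. Log2 intensities across the tested genes correlated at 0.975 to 0.994 within a culture, and the lowest of these values was in adherent mouse 2, whose replicate 1 stood apart from arrays a and b. All 7 basal epithelial markers on the list, such as Krt5 and Krt14, were detected on all 9 replicate arrays. Some markers were called in spheroids against both adherent cultures, by the rule given below. Of all tested genes 13.4% were called lower there and 13.1% higher. Of 7 basal markers 1 (Krt15) was higher in spheroids, a share near that of all genes. Of 6 tested luminal markers 3 (Krt19, Tmprss2 and Krt7) were higher and 1 (Krt18) lower. The mean log2 intensity of these 6 was 7.86 to 8.10 in adherent mouse 1, 8.93 to 9.10 in adherent mouse 2 and 9.83 to 9.90 in spheroids. Of 10 fibroblast and smooth muscle markers 3 were tested, 1 of them (Acta2) lower, with a mean of 7.92 to 8.19 in adherent arrays and 6.64 to 6.74 in spheroids, while Col1a1, Pdgfra and Pdgfrb were detected on 0 of 9 arrays. Of 8 leukocyte markers 3 were tested. Cd14 was higher (2.81), while Csf1r (0.40) and Cd3e (-0.49) were not called. The mean of these 3 was 5.42 to 6.18 on adherent and 6.42 to 6.87 on spheroid arrays, a shift carried mainly by Cd14. Ptprc, which marks all leukocytes, was detected on 2 of 9 arrays. Of 6 endothelial markers 3 were tested and 0 called, with Cdh5 and Vwf detected on 0 arrays and means of 4.74 to 5.02 and 4.54 to 4.60. Their part in the histone results was not tested, and in bulk RNA fewer cells of a type cannot be told apart from less RNA per cell.

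DNA is wrapped around a core of histones H2A, H2B, H3 and H4, and linker histone H1 binds where the strand enters and leaves. Replication-dependent histone genes lie in clusters, are read mainly during S phase, when new DNA has to be packaged, and their messenger RNAs end in a stem-loop and normally carry no poly(A) tail. Replacement histones are mostly made throughout the cell cycle, largely from polyadenylated messengers, though not every member keeps strictly to this. They are exchanged into chromatin at active genes, at gene starts or at DNA breaks. The labelling kit used here primes from poly(A) tails, so signal from a replication-dependent gene depends on how much of its transcript is polyadenylated. That share was not measured. Histone gene copies within a family are nearly identical in their coding parts, so a probe may read several copies, which was not tested, since probe letters were not used here.

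RefSeq promoter windows (250 bases before to 50 after the start, build GRCm38.p6) were matched for 60 of the 66 genes, giving 61 windows. The following 4 are shown because they belong to genes that rose in spheroids: the windows of H2bc7 and H2bc11 also span the short stretch that each shares with an H2A gene that fell, H2ac19 is the H2A gene that rose most, and H1f2 is the linker histone gene that rose. Capitals mark the letters of 3 motifs that were searched on both strands, so that they may appear reversed. These were CCAAT, known as the CCAAT box, TATAAA, known as the TATA box, and ATTTGCAT, known as the octamer.
H2bc7, minus strand of chr13:23574158-23574457: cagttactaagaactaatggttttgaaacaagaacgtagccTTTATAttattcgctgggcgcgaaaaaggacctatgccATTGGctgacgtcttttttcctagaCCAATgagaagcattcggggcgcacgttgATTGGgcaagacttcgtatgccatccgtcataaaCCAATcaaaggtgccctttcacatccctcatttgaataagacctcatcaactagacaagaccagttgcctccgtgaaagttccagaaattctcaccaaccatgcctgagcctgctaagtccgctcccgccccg
H2bc11, plus strand of chr13:22042948-22043247: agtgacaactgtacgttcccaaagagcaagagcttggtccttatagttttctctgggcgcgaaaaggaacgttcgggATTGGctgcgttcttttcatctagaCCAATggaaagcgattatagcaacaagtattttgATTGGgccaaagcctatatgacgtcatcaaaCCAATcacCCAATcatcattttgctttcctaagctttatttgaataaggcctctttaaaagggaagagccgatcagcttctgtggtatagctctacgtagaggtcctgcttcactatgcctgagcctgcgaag
H2ac19, minus strand of chr3:96240325-96240624: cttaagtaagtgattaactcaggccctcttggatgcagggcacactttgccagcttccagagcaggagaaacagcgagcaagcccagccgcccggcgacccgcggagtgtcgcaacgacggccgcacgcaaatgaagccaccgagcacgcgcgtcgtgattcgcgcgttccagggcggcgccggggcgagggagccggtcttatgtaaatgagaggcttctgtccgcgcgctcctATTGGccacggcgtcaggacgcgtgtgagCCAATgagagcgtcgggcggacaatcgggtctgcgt
H1f2, plus strand of chr13:23738557-23738856: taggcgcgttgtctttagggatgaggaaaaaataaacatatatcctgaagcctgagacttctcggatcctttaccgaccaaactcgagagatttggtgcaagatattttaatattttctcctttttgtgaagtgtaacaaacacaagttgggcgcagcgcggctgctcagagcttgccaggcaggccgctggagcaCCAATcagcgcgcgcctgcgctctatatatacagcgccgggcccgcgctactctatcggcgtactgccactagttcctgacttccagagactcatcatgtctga

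The H2bc7 window held 4 matches to CCAAT and 1 to TATAAA, H2bc11 held 5 to CCAAT, H2ac19 held 2 and H1f2 held 1. CCAAT was present in 15 of 15 replication-dependent H2A windows and 11 of 11 H2B windows, the latter from 10 genes. It was in 7 of 7 H3 and 5 of 5 H1 windows, but in 3 of 12 H4 windows, against 37.4% of all 32851 promoter windows. The octamer was present in 6 of the 11 H2B windows and 5 of the 15 H2A windows, against 1.74% of all windows, and in 0 of the H1, H3 and H4 windows. TATAAA was found in 4 of 5 H1, 10 of 15 H2A, 5 of 11 H2B, 2 of 7 H3 and 8 of 12 H4 windows, against 13.6% of all. By direction of change, CCAAT was in 10 of 10 windows of H2A genes that fell and 2 of 2 of H2A genes that rose. It was also in 8 of 8 windows from 7 of the H2B genes that rose. Since CCAAT was in every H2A and H2B window, it could not separate genes that moved in opposite directions. In the same 3 sets the octamer was in 2 of 10, 0 of 2 and 3 of 8 windows. TATAAA was in 6 of 10, 1 of 2 and 3 of 8. Whether any of these motifs bears on the direction of change was not tested. Windows of neighbouring H2A and H2B genes overlap, so their counts share sequence. A match is a description of letters and not a bound site.

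The main comparison asked how histone transcripts differed between spheroids and the average of the adherent cultures. A gene was called when its adjusted p (limma, Benjamini-Hochberg over all 10112 genes) was under 0.05 and its fold at least 2, that is, a log2 difference of at least 1 in size. Among the 52 tested histone genes 13 were lower and 13 higher in spheroids, while 13.4% of all genes were called lower and 13.1% higher. The split followed the family. Of 15 replication-dependent H2A genes 10 fell, H2ac20 among them by its brightest probe only, and 2 rose (median log2 difference -2.48), of 11 H2B genes 0 fell and 8 rose (median 1.65), of 7 replication-dependent H3 genes 0 were called (median -0.34), and of 11 H4 genes 2 rose (median -0.10). The median over all genes was -0.06. Of the 52 tested members 35 had 3 spheroid values outside the range of the 6 adherent values, against 53.6% of all tested genes. All 26 called members were among the 35, but a call itself selects for such a gap. On the adjusted p alone, without a fold, 22 members were lower and 17 higher, against 34.4% and 29.3% of all genes.

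**Figure D1:**
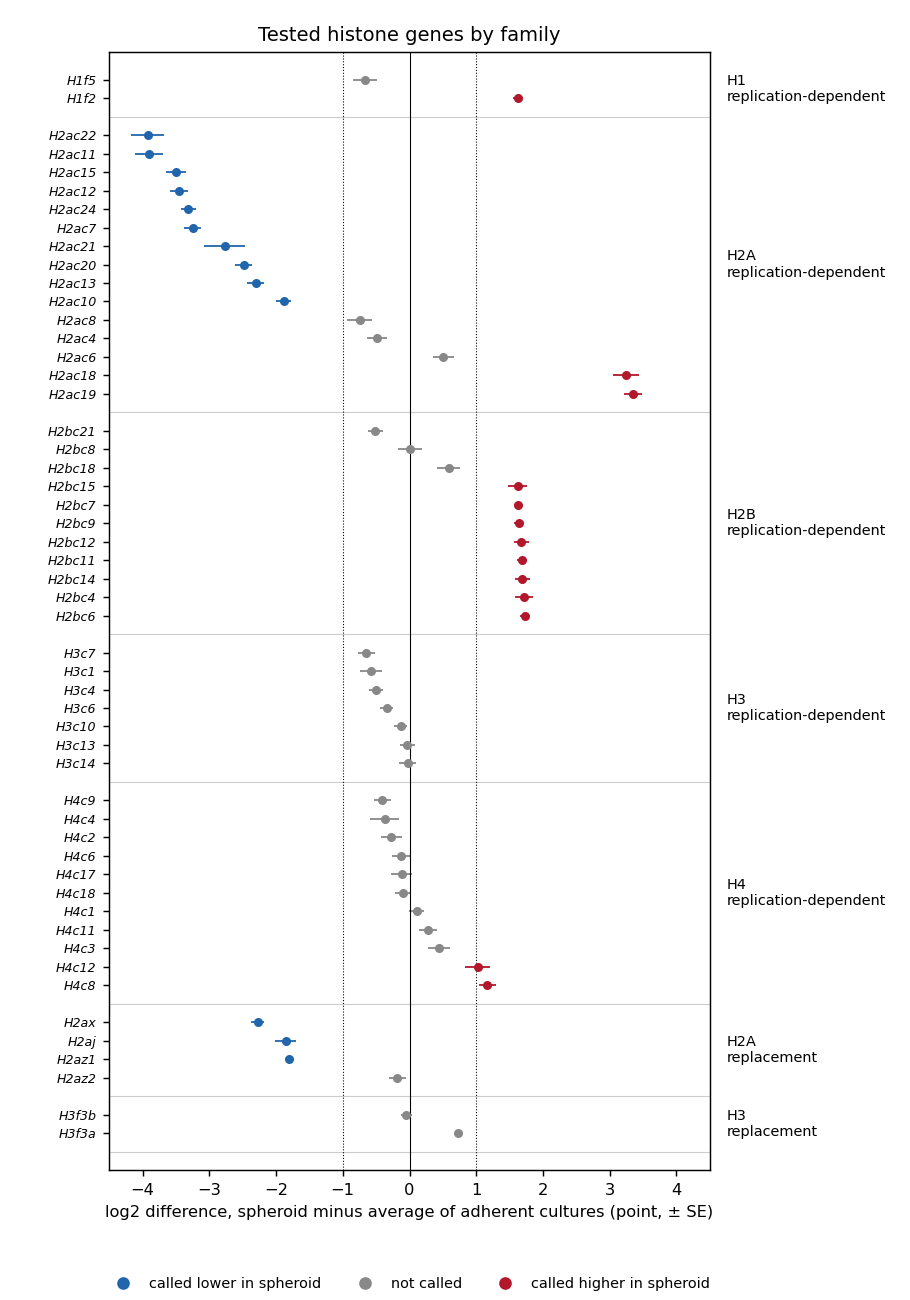
Log2 difference between spheroids and the average of the adherent cultures for each of the 52 tested histone genes, grouped by family (points, differences of means over 3 spheroid and 6 adherent replicate arrays; bars, SE from the limma fit; dotted lines, 2-fold). H2A genes spread from -3.92 to 3.35, 8 H2B genes sit together between 1.62 and 1.73, and the replication-dependent H3 genes lie between -0.65 and -0.03.

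H2A genes showed the widest spread. H2ac22 measured 12.60, 12.58 and 12.60 in adherent mouse 1 (log2 normalized intensity, as are all levels below), 12.51, 11.46 and 10.81 in adherent mouse 2 (replicate 1, a and b) and 8.13, 8.09 and 8.29 in spheroids. The spheroid arrays were low by a wide margin, and within adherent mouse 2 replicate 1 stayed at the level of mouse 1 while a and b were lower. Its log2 difference was -3.92 (SE 0.25, 3 against 6 arrays, adjusted p 1.2e-08), a 15.2-fold lower intensity.

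H2ac11 gave 11.21, 11.05 and 11.23 in adherent mouse 1, 11.06, 10.09 and 9.77 in adherent mouse 2 and 6.70, 6.98 and 6.80 in spheroids, a log2 difference of -3.91 (SE 0.21). H2ac15 gave 13.75, 13.48 and 13.71, then 13.55, 13.15 and 12.63, then 9.76, 9.95 and 9.92, a difference of -3.50 (SE 0.15). H2ac12 gave 13.51, 13.51 and 13.47, then 13.45, 13.06 and 12.64, then 9.74, 9.95 and 9.77, a difference of -3.45 (SE 0.13). In these 3 genes, as in H2ac22, the spheroid arrays lay below every adherent array, and array b was the lowest adherent array.

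H2ac24 and H2ac7 started from intensities near the top of the scale. H2ac24 measured 14.67, 14.70 and 14.72 in adherent mouse 1, 14.61, 14.19 and 13.89 in adherent mouse 2 and 11.15, 11.12 and 11.16 in spheroids (difference -3.32, SE 0.11). H2ac7 measured 14.56, 14.45 and 14.52, then 14.40, 13.94 and 13.59, then 10.96 to 11.03 (difference -3.25, SE 0.12). The brightest probe on every array was at 14.89 after normalization, and whether this ceiling shortened the differences of such genes was not tested.

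H2ac13 and H2ac10 showed smaller differences on their brightest probe than on the dimmer. H2ac13 fell by 2.31 (SE 0.12) on its brightest probe, from 14.51 to 14.57 in adherent mouse 1 and replicate 1 of mouse 2, and 14.14 and 13.69 on arrays a and b, to 11.99 to 12.06 in spheroids, and by 3.28 on the other probe. H2ac10 fell by 1.89 (SE 0.11) from 14.57 to 14.70 in adherent mouse 1 to 12.50, 12.52 and 12.58 in spheroids, with 14.58, 14.16 and 13.90 in adherent mouse 2. Its other probe read 13.40, 13.27 and 13.31, then 13.28, 12.49 and 11.94, then 8.94, 8.87 and 9.15, a difference of -3.96. Both probes of each gene were thus called lower, by unequal amounts.

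H2ac21 varied widely between the adherent arrays, with 9.85, 9.53 and 9.91 in mouse 1, 9.81, 8.45 and 7.83 in mouse 2 and 6.23, 6.68 and 6.48 in spheroids (difference -2.77, SE 0.31, adjusted p 3.2e-06). The spheroid arrays still lay below the lowest adherent array. H2ac20 measured 14.58, 14.49 and 14.62, then 14.43, 14.06 and 13.63, then 11.76, 11.87 and 11.83 on its brightest probe (difference -2.48, SE 0.12). Its other passing probe moved the opposite way, as given further on, so the direction for H2ac20 rests on the choice of probe.

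H2ac18 and H2ac19, which lie in the same cluster on chromosome 3 and encode the same protein, rose. H2ac19 measured 8.59, 8.47 and 8.26 in adherent mouse 1, 8.85, 8.27 and 8.22 in adherent mouse 2 and 11.67, 11.78 and 11.92 in spheroids, a log2 difference of 3.35 (SE 0.14, adjusted p 1.3e-10) or 10.2-fold. H2ac18 measured 8.11, 7.85 and 7.57, then 8.27, 7.41 and 7.20, then 10.81, 11.04 and 11.09, a difference of 3.24 (SE 0.20). All 3 spheroid arrays were above all 6 adherent arrays for both. As near-identical copies their signals cannot be separated with certainty.

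The other 3 H2A genes were dim and were not called. H2ac8 had a log2 difference of -0.75 (SE 0.19, adjusted p 3.7e-03) between values of 5.53 to 6.42 on adherent and 5.15 to 5.56 on spheroid arrays, which overlapped. H2ac4 had -0.49 (SE 0.15) and H2ac6 0.51 (SE 0.15), and H2ac6 was detected on 0 of 3 arrays of adherent mouse 2. By chromosome, 8 of 11 tested H2A genes on chromosome 13 fell and 0 rose, while of 4 on chromosome 3, 2 fell (H2ac20 and H2ac21) and 2 rose.

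**Figure D2:**
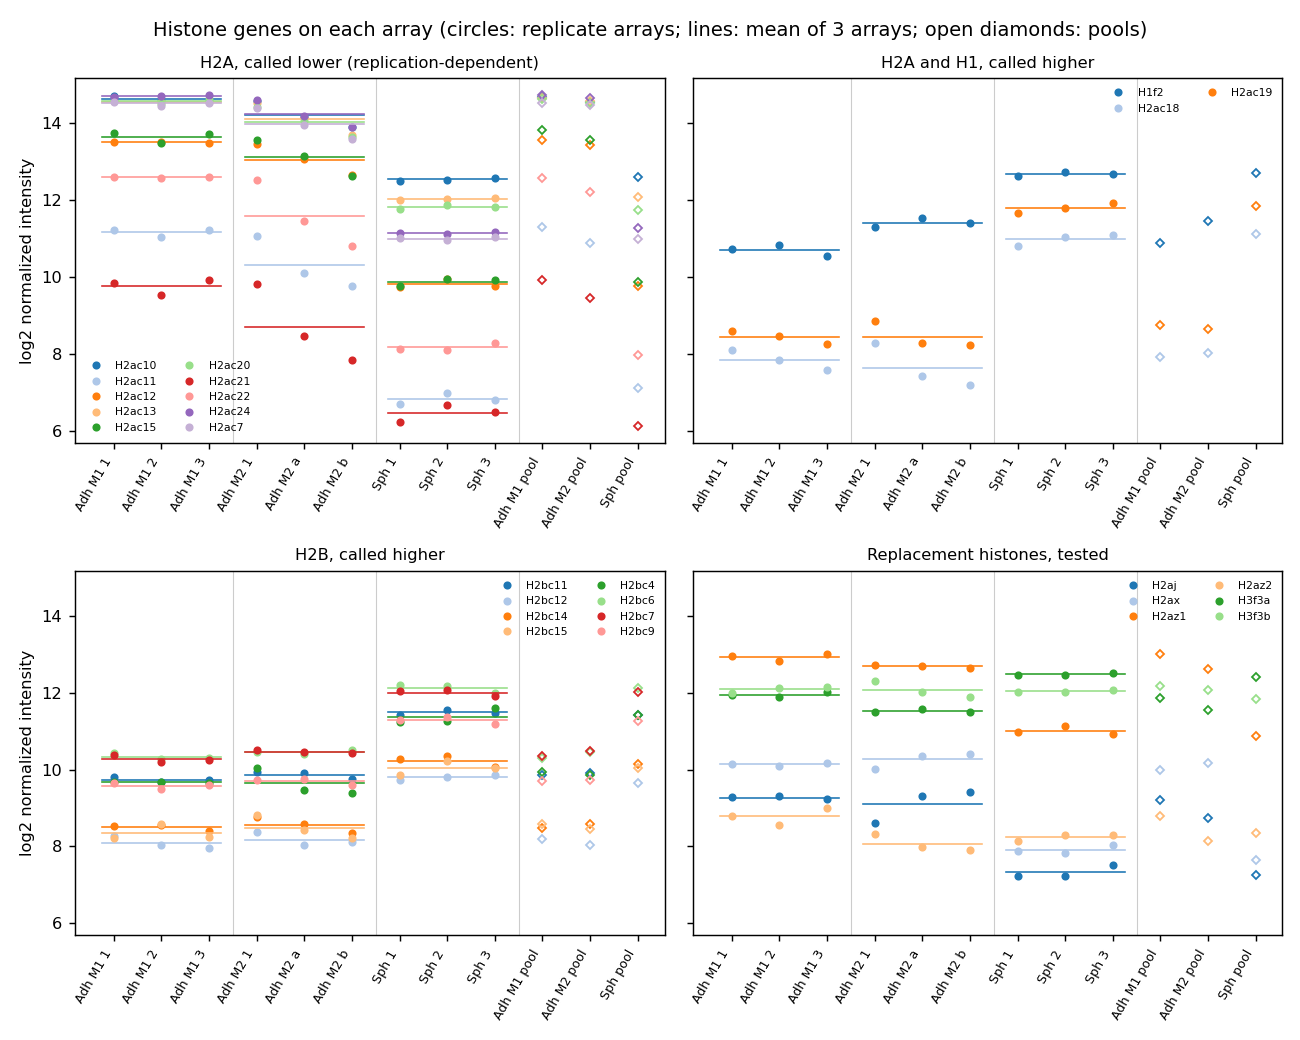
Log2 normalized intensity on each of the 12 arrays for called H2A, H1 and H2B genes and for the replacement histones (circles, replicate arrays; lines, mean of the 3 arrays of a culture; open diamonds, pools; Adh M1 and Adh M2, adherent mouse 1 and 2; Sph, spheroid). The 10 falling H2A genes lie lower on arrays a and b of adherent mouse 2 than on its replicate 1, and lowest on the spheroid arrays. Each of the 8 H2B genes lies higher on the spheroid arrays than on any adherent replicate array.

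Of the 11 tested H2B genes 8 rose, by nearly the same amount on their brightest probes, and 3 were not called. H2bc6 measured 10.42, 10.27 and 10.30 in adherent mouse 1, 10.47, 10.40 and 10.52 in adherent mouse 2 and 12.21, 12.18 and 11.98 in spheroids, a log2 difference of 1.73 (SE 0.07, adjusted p 2.7e-10) or 3.31-fold. H2bc4 gave 9.68, 9.69 and 9.65, then 10.05, 9.48 and 9.39, then 11.23, 11.27 and 11.61 (difference 1.71, SE 0.13). H2bc14 gave 8.54, 8.56 and 8.41, then 8.77, 8.58 and 8.35, then 10.27, 10.35 and 10.06 (difference 1.69, SE 0.11). For each of them the spheroid arrays stood clear of every adherent array.

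H2bc11 measured 9.80, 9.67 and 9.73, then 9.93, 9.92 and 9.75, then 11.43, 11.55 and 11.48 (difference 1.69, SE 0.07). H2bc12 measured 8.27, 8.03 and 7.95, then 8.38, 8.03 and 8.11, then 9.73, 9.82 and 9.87 (difference 1.68, SE 0.11). H2bc9 measured 9.64, 9.49 and 9.59, then 9.74, 9.75 and 9.60, then 11.30, 11.36 and 11.19 (difference 1.65, SE 0.08). Adherent mouse 1 and mouse 2 gave overlapping values in H2bc12 and H2bc9. Among the tested H2B genes the largest log2 difference between these 2 cultures was 0.185, in H2bc7.

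H2bc7, whose promoter window is printed above, measured 10.38, 10.20 and 10.26, then 10.50, 10.46 and 10.44, then 12.04, 12.06 and 11.91 (difference 1.63, SE 0.07). H2bc15 measured 8.21, 8.58 and 8.25, then 8.83, 8.43 and 8.21, then 9.87, 10.22 and 10.03 (difference 1.62, SE 0.14). Thus 8 of 8 called H2B genes lay between 1.62 and 1.73 on their brightest probes. Other passing probes gave smaller differences, 1.52 for H2bc6, 1.33 for H2bc12 and 0.76 for H2bc4. Whether the probes of these genes read the same transcripts was not tested.

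The 3 H2B genes that were not called were H2bc18 with 0.58 (SE 0.17), H2bc8 with 0.00 (SE 0.18) and H2bc21 with -0.51 (SE 0.12, adjusted p 1.7e-03). H2bc21 and H2bc18 are the 2 tested H2B genes on chromosome 3, and the 8 that rose were among the 9 on chromosome 13. H2bc18 was detected on 1 of 3 arrays of adherent mouse 1 and 0 of 3 of adherent mouse 2, so the adherent side of its difference was mostly at background.

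Many H2A and H2B genes are known to stand next to each other and to be read outward from a shared stretch of DNA. RefSeq placed 8 such neighbours within 1000 bases of each other, with 163 to 280 bases between the genes, and both genes were tested in 7, of which 5 were head to head by the strands of their promoter windows and 2 had a gene without a window. In 4 of these 7 the H2A gene was called lower and the H2B gene beside it higher: H2ac15 with H2bc15 (-3.50 and 1.62), H2ac12 with H2bc12 (-3.45 and 1.68), H2ac11 with H2bc11 (-3.91 and 1.69) and H2ac7 with H2bc7 (-3.25 and 1.63). The same 4 showed this order against adherent mouse 1 and against adherent mouse 2, with H2A differences of -4.34 to -3.52 and -3.48 to -2.98 and H2B differences of 1.69 to 1.76 and 1.54 to 1.63.

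In the other 3 the genes did not part this way. H2ac8 had -0.75 and H2bc8 0.00, neither called. H2ac6 had 0.51, not called, beside H2bc4 with 1.71. H2ac20 fell by 2.48 on its brightest probe beside H2bc21 with -0.51, not called.

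**Figure D3:**
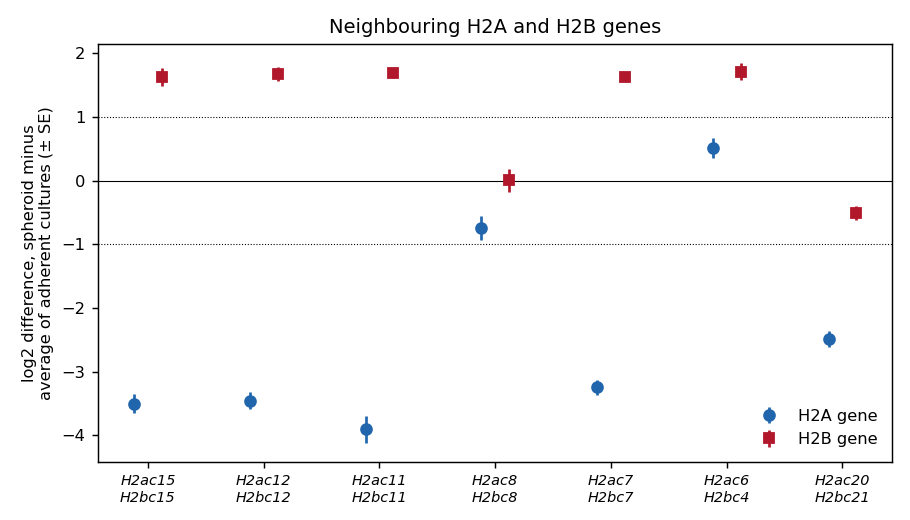
Log2 difference between spheroids and the average of the adherent cultures (points, ± SE from the limma fit) for 7 neighbouring H2A (circles) and H2B (squares) genes, with dotted lines at 2-fold. In 4 neighbours the H2A gene lies between -3.91 and -3.25 while the H2B gene lies between 1.62 and 1.69.

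Of 5 replication-dependent linker histone genes 2 were tested. H1f2 measured 10.73, 10.84 and 10.55 in adherent mouse 1, 11.31, 11.53 and 11.39 in adherent mouse 2 and 12.63, 12.74 and 12.68 in spheroids. The 3 cultures did not overlap: mouse 1 was lowest, mouse 2 intermediate and spheroids highest. Its difference was 1.62 (SE 0.08, adjusted p 7.2e-10) against both adherent cultures, 1.98 against mouse 1 and 1.27 against mouse 2. H1f5 was dim, at 4.99 to 5.81 on adherent and 4.41 to 5.01 on spheroid arrays, with a difference of -0.66 (SE 0.18) that was not called.

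Replication-dependent H3 genes moved little. H3c13 and H3c14, both on chromosome 3, had differences of -0.03 (SE 0.11) and -0.03 (SE 0.12). H3c13 measured 10.51, 10.37 and 10.53 in adherent mouse 1, 10.78, 10.27 and 10.22 in adherent mouse 2 and 10.37, 10.40 and 10.48 in spheroids, which overlapped throughout. H3c7 (-0.65, SE 0.13), H3c1 (-0.57, SE 0.16), H3c4 (-0.50, SE 0.11) and H3c6 (-0.34, SE 0.10) had adjusted p-values of 6.0e-04 to 9.1e-03 and were under 2-fold. H3c10 had -0.13 (SE 0.10).

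H4 genes were also mostly close to 0 against the average of the adherent cultures. Their median was -0.25 against adherent mouse 1 and 0.23 against adherent mouse 2, so the average joins differences of opposite sign. H4c8 measured 6.50, 6.54 and 6.39, then 6.94, 6.55 and 6.59, then 7.77, 7.79 and 7.70 in spheroids, a log2 difference of 1.17 (SE 0.13, adjusted p 3.0e-06). H4c12 measured 6.11, 5.94 and 6.30, then 6.46, 5.92 and 5.71, then 6.86, 7.40 and 7.03, a difference of 1.02 (SE 0.19, adjusted p 3.0e-04). Both groups of spheroid values lay above the adherent ones, yet H4c12 dropped below 2-fold on leaving out any 1 of 4 arrays, with differences of 0.87 to 0.99, and neither gene reached 2-fold in the authors' normalized table (0.72 for H4c8 and 0.53 for H4c12) or under median scaling (0.73 and 0.66).

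The other 9 tested H4 genes had differences of -0.41 (H4c9) to 0.44 (H4c3). H4c1 measured 9.85 to 10.03 in adherent mouse 1, 9.24 to 9.69 in adherent mouse 2 and 9.66 to 9.94 in spheroids, so the spheroid values overlapped both adherent cultures. H4c2 was detected on 0 of 3 arrays both in adherent mouse 2 and in spheroids.

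Replacement histones divided by family as well: 3 of 4 H2A replacement genes fell and neither H3 replacement gene was called. H2ax encodes the H2A form that is phosphorylated around DNA breaks. It measured 10.15, 10.10 and 10.17 in adherent mouse 1, 10.02, 10.36 and 10.41 in adherent mouse 2 and 7.87, 7.84 and 8.05 in spheroids, a log2 difference of -2.28 (SE 0.10, adjusted p 2.9e-10) or 4.85-fold lower.

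H2az1 encodes H2A.Z, which flanks the starts of active genes. It measured 12.95, 12.82 and 13.00, then 12.73, 12.70 and 12.64, then 10.97, 11.14 and 10.92, a difference of -1.80 (SE 0.07). Its relative H2az2 measured 8.79, 8.55 and 9.01 in adherent mouse 1, 8.32, 7.98 and 7.92 in adherent mouse 2 and 8.15, 8.30 and 8.29 in spheroids, a difference of -0.18 (SE 0.13, adjusted p 0.23). The 2 genes for H2A.Z therefore differed in outcome: the H2az1 spheroid values lay far below both adherent cultures and those of H2az2 fell inside the range of adherent mouse 2.

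H2aj, whose human counterpart is known to accumulate in senescent fibroblasts, measured 9.28, 9.31 and 9.23, then 8.62, 9.30 and 9.41, then 7.23, 7.24 and 7.53 in spheroids. Its difference was -1.86 (SE 0.15, adjusted p 1.7e-07), and its 3 probes gave -1.93 to -1.33. The pool of adherent mouse 2 read 8.73, near the replicate 1 value.

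H3f3a and H3f3b encode the same replacement histone, H3.3. H3f3b measured 12.00, 12.11 and 12.16, then 12.30, 12.03 and 11.90, then 12.02, 12.03 and 12.06, a difference of -0.05 (SE 0.08, adjusted p 0.64) with full overlap. H3f3a measured 11.95, 11.89 and 12.01, then 11.50, 11.58 and 11.51, then 12.46, 12.47 and 12.50, a difference of 0.73 (SE 0.06, adjusted p 1.2e-07), or 1.66-fold, under the fold set for a call. The H3f3a spheroid arrays were above every adherent array and those of mouse 2 were the lowest.

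Of the 52 tested genes 18 had more than 1 passing probe. Counted by probe, 21 of 72 passing histone probes were called lower and 20 higher, against 12.4% and 11.5% of all 18950 passing probes. In 13 of the 18 genes all passing probes got the same call. In H2ac20 the probes were called in opposite directions, -2.48 on the bright probe and 2.90 on the dimmer, which measured 6.01, 5.97 and 5.72, then 6.06, 5.60 and 5.51, then 8.53, 8.89 and 8.70.

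The other 4 genes with unequal calls were H3f3a, H4c18, H3c10 and H2bc4. The dimmer H3f3a probe fell, from 5.69 to 6.68 on adherent arrays to 4.60, 5.24 and 4.68 on spheroid arrays (difference -1.31), while the bright probe stood at 0.73. H4c18 had -0.10 on its bright and 1.32 on its dimmer probe, and H3c10 had -0.13 and -1.15. H2bc4 had 1.71 and 0.76. Whether these probes read different transcripts or copies was not tested.

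**Figure D4:**
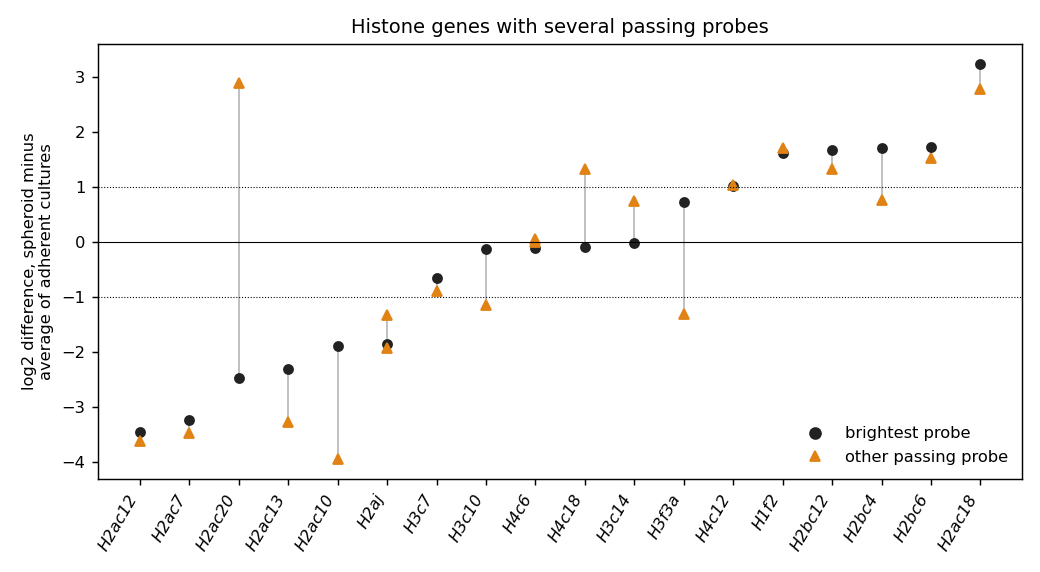
Log2 difference between spheroids and the average of the adherent cultures for each passing probe of the 18 histone genes with more than 1 (black circle, brightest probe, used for the gene; orange triangle, other probes; dotted lines, 2-fold). The probes of H2ac20 lie at -2.48 and 2.90, on opposite sides of 0, and those of H3f3a at 0.73 and -1.31.

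The counts were also taken against each adherent culture alone. Against adherent mouse 1, the same animal as the spheroids, 13 histone genes were lower and 12 higher (14.1% and 13.4% of all genes). H4c12, at 0.98, was the gene that missed the fold there. Against adherent mouse 2 they were 13 and 13 (13.6% and 13.2% of all genes), but with median scaling 6 were higher in place of 13. These comparisons share the spheroid arrays, so their likeness is partly built in. On the adjusted p alone 24 were lower against mouse 1 and 21 against mouse 2, with 32.2% and 32% of all genes. H2A differences were larger against mouse 1, with a median of -2.74 over the 15 genes, than against mouse 2, with -2.22.

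Adherent mouse 2 was set against adherent mouse 1 to see how far histone genes varied without a change of culture form. Only H2ac22 was called, at -1.0 (SE 0.29, adjusted p 0.038), that is, 1 of 52 members against 2.46% of all genes, and it lost the call on leaving out any array other than replicate 1 of mouse 2. On the adjusted p alone 13 members differed, against 13.4% of all genes: 6 of the 10 H2A genes that fell in spheroids, 4 H4 genes, H2az2 and H3f3a were lower in mouse 2, and H1f2 was higher. H2az2 had -0.71 (SE 0.15, adjusted p 0.0069), H4c17 had -0.70 (SE 0.18), and H1f2 had 0.70 (SE 0.09, adjusted p 0.00027).

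The arrays of mouse 2 were not alike for H2A, nor for several other histone families. The mean of the 10 falling H2A genes was 13.29 on replicate 1, 12.67 on array a and 12.24 on array b, against 13.29 to 13.40 in mouse 1, and b was the lowest of the 3 in 10 of 10 genes. The pool of mouse 2 read 13.23. Over the same 3 arrays the mean of the 2 rising H2A genes was 8.56, 7.84 and 7.71. That of 7 replication-dependent H3 genes was 9.08, 8.83 and 8.68, and that of 11 H4 genes 7.14, 6.81 and 6.78. The mean of the 8 rising H2B genes was 9.58, 9.38 and 9.30, and that of 20 S phase genes was 9.30, 9.31 and 9.29. Array b was the lowest of the 3 in 7 of these 7 H3 genes, 7 of 11 H4 genes and 7 of 11 H2B genes. It was lowest in 38 of 52 tested members, and the share over all genes was not counted. Without replicate 1, 3 histone genes were called lower in mouse 2 and 0 higher, when 3.72% of all genes were called, and the median of the 10 H2A genes was -0.73 in place of -0.53.

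The pools, which hold RNA of the same replicates and so are no independent samples, gave the same sign as the replicates for 26 of 26 called histone genes.

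Of the 14 histone genes that did not pass the detection filter, H1f1, H1f3, H1f4, H2bc3, H3c3, H3c8, H4c14 and H4f16 are replication-dependent and H1f10 is a replacement linker histone. The other 5 are the germ-cell genes. They were detected on 0 to 4 of 9 arrays and none exceeded 5.34 on any, so changes in them could not be seen at this signal.

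Genes that act on histones were counted for the same comparison, spheroids against both adherent cultures, from lists of known functions. Of 24 tested chaperone and assembly genes 14 fell and 1 rose (median -1.32), where 13.4% and 13.1% of all genes did. Asf1b, which hands H3 and H4 to the assembly factors, had -3.36 (SE 0.15). Chaf1a and Chaf1b, subunits of the CAF-1 complex that loads H3 and H4 onto newly copied DNA, had -2.35 (SE 0.12) and -2.50 (SE 0.14). Hirip3 had -2.62 and Nasp, a carrier of H3 and H4, had -2.52. Hira, which deposits H3.3 outside replication, had -1.42 (SE 0.17), and Ubn2, a partner of Hira, rose with 1.29 (SE 0.15).

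Of 9 genes of the complexes that exchange H2A.Z, 5 fell, against 13.4% of all genes: Ruvbl2 (-2.65), Ruvbl1 (-2.17), Actl6a (-1.22), Yeats4 (-1.11) and Ino80 (-1.02). Ino80 was detected on 1 of 3 spheroid arrays and was not called against adherent mouse 1 alone (-0.97). Of 5 tested variants outside the symbol rule 2 fell, against the same 13.4%: Cenpa, the H3 form of centromeres, with -2.87 (SE 0.10), and Macroh2a2 with -2.04 (SE 0.17), detected on 1 of 3 spheroid arrays. In the list of 13 tested genes of histone supply and histone messenger processing 2 fell and 0 rose, a share near the 13.4% of all genes. Srrt, which works with the cap-binding complex, had -1.04 (SE 0.14) and was not called against adherent mouse 1 alone (-0.945). Cpsf2, a subunit of the machinery that cuts messenger ends, was detected on 0 of 3 spheroid arrays and was at least 2.02-fold lower. Slbp, which binds the histone stem-loop, and Npat, which activates histone genes, were detected on 0 and 5 of 9 arrays and did not pass the filter.

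Of 20 tested S phase genes 20 fell (median -2.69), against 13.4% of all genes. Mcm5 and Mcm6, subunits of the helicase that opens DNA for copying, had -3.41 and -3.01. Ung, which removes uracil from DNA, had -3.29, and Cdc6, which loads the helicase, had -3.17 and was detected on 1 of 3 spheroid arrays. Their mean level was 9.29 to 9.35 on the 6 adherent arrays and 6.71 to 6.78 in spheroids. Beside this, the mean of the 7 tested replication-dependent H3 genes was 8.68 to 9.08 on adherent and 8.51 to 8.67 on spheroid arrays, and that of the 11 H4 genes was 6.78 to 7.29 and 7.11 to 7.38. How far the differences among the histone families follow DNA replication was not tested.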

How the data were processed

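Per the file headers, the table without normalization gives a mean bead intensity per probe and array and, beside it, a detection p-value; the authors also deposited normalized intensities on a linear scale. Scanner software, probe design build and normalization method are not given in the sources used here. Per the labels' protocols, biotin-labelled RNA copies were made with MessageAmp reagents.

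The non-normalized intensities were background-corrected from the detection p-values, given an offset of 16, quantile-normalized over 12 arrays and put on the log2 scale (neqc, limma 3.58.1, R 4.3.3); this offset shrinks differences of dim genes. Kept were the 18950 probes with detection p under 0.05 on every replicate array of some culture, and the brightest passing probe stood for its gene. No probe with several symbols was used (18 probes). The model had 1 mean for each culture and used 9 replicate arrays (lmFit and eBayes with an intensity trend), leaving out pools, and p-values were Benjamini-Hochberg adjusted over 10112 genes. For called list genes with 0 detections on the whole dim side of a comparison a fold was given as "at least", against the lowest detected signal of each array. The fit was tested on simulated data. Array number limits the precision. Arrays a and b matched the normalized columns of replicates 2 and 3 of adherent mouse 2 by rank correlation, 0.99992 and 0.99984.

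Members, lists and tests were chosen with earlier results of these data known. All tested histone genes could be named; levels by array are given for those called and for the replacement genes, and from each list the called genes with the 4 largest differences and a few fixed regulators. Ino80, Ubn2, Krt5 and Krt14 were named after their values were seen. Promoter letters are from RefSeq, read with Python 3.11.15. Alternatives covered scaling, background, filter, probe choice, thresholds, arrays left out and pools.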

Additional observations from a re-analysis of the deposited data

How the results depend on the processing

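Counts of histone genes called between spheroid and adherent culture stayed within 1.5 times under the scaling, background, filter, probe, trend and weight settings tried, apart from 4. On the adjusted p alone the lower counts were 22 against both adherent cultures, 24 against mouse 1 and 21 against mouse 2, by construction, and with median scaling 6 genes in place of 13 were higher than in mouse 2. Median scaling moved the median of all genes from -0.06 to -0.35; at 2-fold around 0, against both adherent cultures, 10 H2A genes were still called lower, 2 H2A and 8 H2B genes higher, as under cyclic loess. Leaving out 1 array gave 13 to 14 lower and 12 to 13 higher genes. The single call between the adherent cultures was unstable: 0 with median scaling, cyclic loess, no background correction, an offset of 50, no detection filter, no trend or pools, 3 with array weights, 6 at 1.5-fold, 13 on the adjusted p alone and 0 to 3 on leaving out 1 array. The cause was not tested.

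Of 696 values for 29 named genes 675 kept direction and side of the threshold, 15 fell short of it (H4c12 and H4c8) and 2 passed it. Threshold and trend settings leave a log2 difference as it is, so direction was kept there by construction. Reversed were H2ac20 (0.21) and H3f3a (-0.29) with the mean of passing probes, which holds probes of opposite sign, and H3f3b with cyclic loess (0.10) and without replicate 1 of adherent mouse 2 (0.01, with a range of -0.09 to 0.01 on leaving out each array), all near 0.

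Same-numbered arrays did not deviate together (r of -0.255 to 0.114 over 9 pairs, 1 above 0.1), so replicate numbers are not taken to pair samples. With the replicate block in the authors' normalized values, 13 genes were lower and 11 higher, as without it in those values; in the non-normalized values the block against mouse 1 gave 13 and 12, as did the same 6 arrays without it, a setting added after seeing the data. A slide block was not run, since no header gives a slide. Dim genes, detected on few arrays, limit what can be seen.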
